A study of Mus musculus with 2 samples.

Results

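The Dlk1-Dio3 region of mouse chromosome 12 carries a long chain of miRNA genes, and 9 of them lie at its proximal end, on the plus strand, within and beside the body of the gene Rtl1. These 9 genes are Mir493, Mir337, Mir540, Mir665, Mir431, Mir433, Mir127, Mir434 and Mir136. They were taken by gene symbol from the GENCODE M21 annotation, by a rule that uses no measured value, though earlier results of these data were known when the group was proposed. They are 9 of the 2202 miRNA genes in each deposited count table. In the annotation, 5 of the 9 lie opposite the coding exon of Rtl1 and the other 4 outside that gene on the side of its 3′ end. The group was proposed for this position, so the annotation is no separate support for it. Mir432, Mir3070a and Mir3070b lie on the plus strand of the same stretch and are not members.

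The tissue was adrenal gland from females aged 4 days of the strain B6CASTF1/J, a first-generation cross of C57BL/6J and CAST/EiJ mice. No treatment is named, and beyond this strain name the labels do not state which parental strain was the mother. The series holds a single group of 2 small RNA libraries, numbered as biological replicates 1 and 2. Their descriptions name different females, yet the donor identifier is shared, so it is not certain that the libraries stand for 2 animals. Replicate 1 had 4960537 reads on miRNA genes in their annotated direction, and replicate 2 had 4506482.

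Dlk1-Dio3 is an imprinted domain, in which the parent of origin decides which copy of a gene is used. Dlk1, Rtl1 and Dio3 encode proteins and are expressed from the paternal chromosome, whereas Meg3, Rian, Mirg and the miRNAs are noncoding and are expressed from the maternal chromosome. Rtl1 is a gene derived from a retrotransposon that is needed in the placenta and in developing muscle. The miRNAs on its opposite strand match the Rtl1 messenger RNA in full and are known to direct its cleavage, so the maternal RNA restrains the paternal one. In the adrenal gland, Dlk1 has been studied in undifferentiated cortical cells and in chromaffin cells of the medulla.

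The mature sequences of the 5 genes opposite Rtl1 are shown because their complement to Rtl1 is what sets these genes apart from the other 4. They are from RefSeq (GRCm38.p6), 5′ to 3′, with the seed (bases 2 to 8) in capitals.
miR-431-5p: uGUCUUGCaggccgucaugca
miR-431-3p: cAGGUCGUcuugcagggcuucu
miR-433-5p: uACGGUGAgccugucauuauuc
miR-433-3p: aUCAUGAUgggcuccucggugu
miR-127-5p: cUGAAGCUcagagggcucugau
miR-127-3p: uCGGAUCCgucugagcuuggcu
miR-434-5p: gCUCGACUcaugguuugaacca
miR-434-3p: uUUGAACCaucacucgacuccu
miR-136-5p: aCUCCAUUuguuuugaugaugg
miR-136-3p: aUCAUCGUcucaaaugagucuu

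All 10 of these sequences had a complement over their whole length in the coding sequence of Rtl1, which follows from their position opposite it. The same search over 58797 protein-coding transcripts of 21901 genes found no other gene with a full complement to any of the 18 mature sequences of the 9 genes, and none at all for the 8 sequences of Mir493, Mir337, Mir540 and Mir665. Partial matches, through which most miRNAs act, were not searched. For Mir127 the sites are shown on the Rtl1 strand (minus strand of chromosome 12, GRCm38), with the bases that pair with the seed in capitals. The first lies at chr12:109592854-109592875 and the second at chr12:109592888-109592909.
Rtl1 site of miR-127-5p: atcagagccctctgAGCTTCAg
Rtl1 site of miR-127-3p: agccaagctcagacGGATCCGa

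The 9 genes do not form a seed family. Their 18 mature sequences carried 18 different seeds, and 1 of them, that of miR-540-3p, was also found in a miRNA of another gene (miR-6915-5p) among the 1679 mature names of the table. No member's hairpin shared a run of 18 bases with a hairpin elsewhere, whereas 96 of the 377 genes with at least 10 reads in both libraries (called detected below) did. Only reads with a single place in the genome enter the counts, so such shared runs can lower the count of a gene. How far they did was not measured. The GC content of the member hairpins ran from 40.3% (Mir136) to 61.2% (Mir540), with a median of 53.2% against 50.0% for the 329 detected genes with a RefSeq hairpin. Their predicted folding energy had a median of -0.48 kcal/mol per base, against -0.43 for those 329 genes.

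The members spanned 15156 bases of chromosome 12 (GRCm38). Mir493 (109580233 to 109580315) stood alone, 8506 bases past the end of Meg3. Mir337 (109585789 to 109585885), Mir540 (109586080 to 109586146) and Mir665 (109586314 to 109586407) followed as a tight group with gaps of 194 and 167 bases, outside any annotated gene on their strand. Mir431 (109590447 to 109590537), Mir433 (109591715 to 109591838), Mir127 (109592846 to 109592915), Mir434 (109594506 to 109594599) and Mir136 (109595327 to 109595388) lay opposite exon 2 of Rtl1, all within the part that codes for protein. Mir337 and Mir136 each face an annotated miRNA gene on the minus strand, Mir3544 and Mir3071.

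**Figure D1:**
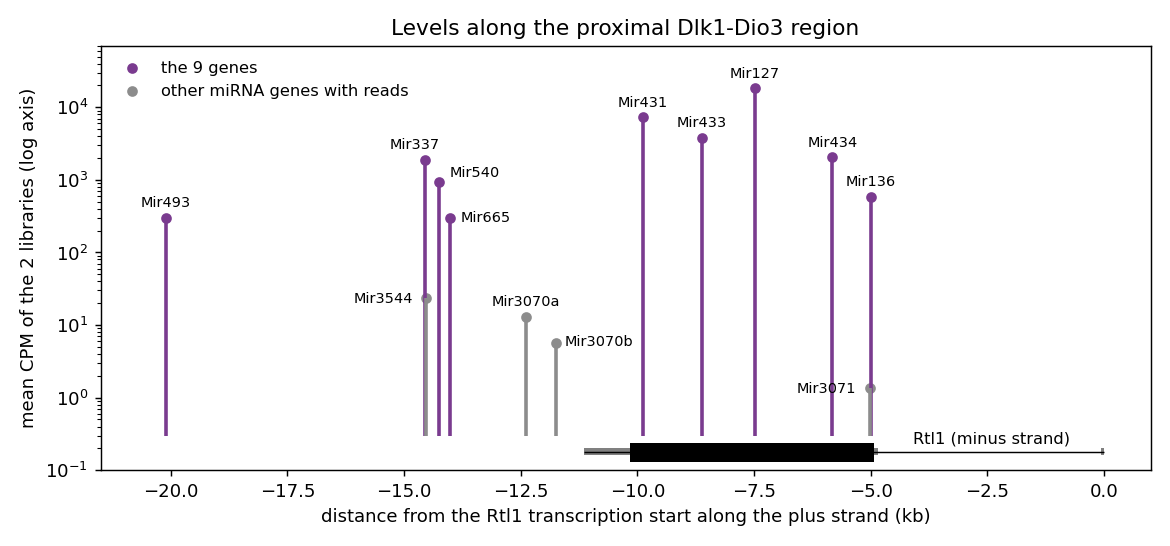
Mean CPM (reads per 1000000 miRNA reads, log axis) of the 2 libraries for each miRNA gene with reads in the 21 kb that hold Rtl1 and its 3′ flank, against the distance from the Rtl1 transcription start in kb along the plus strand. The Rtl1 model at the foot shows its coding part as a thick bar. The tallest stems drawn, Mir127 (18175), Mir431 (7245) and Mir433 (3738), stand opposite the coding part, whereas Mir493 and Mir665 stay near 300.0 and 297.

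All 9 members were detected in both libraries, and together they were a sizeable part of the adrenal miRNA pool. They took 2.77% of the miRNA reads in replicate 1 (137611 reads, 95% Wilson bounds 2.76 and 2.79) and 4.27% in replicate 2 (192291 reads, bounds 4.25 and 4.29), a mean of 3.52% ± 1.06 (SD, n = 2). Intervals cover counting error only. In RNA from tissue, more cells of a type and more RNA per cell cannot be told apart. The 5 genes opposite Rtl1 held 90.5% and 90.2% of the members' reads in replicates 1 and 2, and the 4 outside it held 9.52% and 9.84%. Of all reads on the 67 miRNA genes between Meg3 and Dio3, the 9 members took 26.1% and 29.8%.

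Mir127 led the group. It had 67950 reads (13698 CPM) in replicate 1 and 102082 reads (22652 CPM) in replicate 2, and ranked 20 and 14 among all 2202 genes. This single gene made up 49.4% of the members' reads in replicate 1, with a Wilson interval of 49.1 to 49.6, and 53.1% (52.9 to 53.3) in replicate 2. Among the 67 genes of the locus it ranked second, behind Mir411.

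Mir431, studied in muscle stem cells and neurons, had 26947 reads (5432 CPM) and 40820 reads (9058 CPM) in replicates 1 and 2. Mir433 had 14698 reads (2963 CPM) and 20334 reads (4512 CPM). The proportion of these neighbours was close in the libraries, with 1.83 and 2.01 reads of Mir431 for each read of Mir433. Both were higher in replicate 2, as was Mir127.

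The remaining genes opposite Rtl1 went the other way. Mir434 had 11463 reads (2311 CPM) in replicate 1 and 7994 reads (1774 CPM) in replicate 2. Mir136, which lies nearest to the start of the Rtl1 coding sequence, had 3458 reads (697 CPM) and 2148 reads (477 CPM). For each read of Mir434 there were 5.93 reads of Mir127 in replicate 1 and 12.8 in replicate 2. For each read of Mir136 there were 19.7 and 47.5.

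Of the 4 genes outside Rtl1, Mir337 was the most abundant. It had 8079 reads (1629 CPM) and 9728 reads (2159 CPM) in replicates 1 and 2. Mir540 had 2871 reads (579 CPM) and 5756 reads (1277 CPM). Mir665, only 167 bases further on, had 1544 reads (311 CPM) and 1271 reads (282 CPM). The tight group was therefore not counted in a fixed proportion, with 1.86 reads of Mir540 per read of Mir665 in replicate 1 and 4.53 in replicate 2. Mir493, studied as a suppressor of tumour spread, had 601 reads (121 CPM) and 2158 reads (479 CPM), the widest ratio of the 9.

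Its mature sequences and those of Mir337, which face a miRNA gene on the other strand, are shown for the results that follow (RefSeq, GRCm38.p6, seed in capitals).
miR-493-5p: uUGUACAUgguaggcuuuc
miR-493-3p: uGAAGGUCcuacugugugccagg
miR-337-5p: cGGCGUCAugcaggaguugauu
miR-337-3p: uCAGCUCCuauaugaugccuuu
miR-3544-5p: aGAAAGGCaucauauaggagcug
miR-3544-3p: aCUCCUGCaugacgccguuccc

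**Figure D2:**
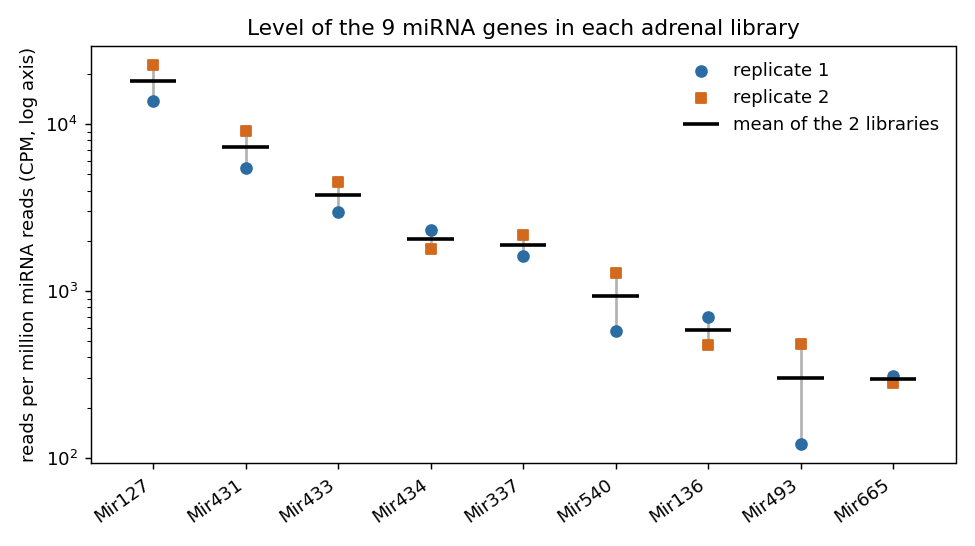
Level of each of the 9 genes in CPM (log axis) in replicate 1 (circles) and replicate 2 (squares), with the mean of both as a bar, ordered by mean. Mir127 is highest in both libraries at 13698 and 22652 CPM, the circles lie above the squares at Mir434, Mir136 and Mir665, and Mir493 has the widest gap on the log axis (121 and 479 CPM).

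By mean level, the order was Mir127 (18175 CPM ± 6332), Mir431 (7245 ± 2564), Mir433 (3738 ± 1095), Mir434 (2042 ± 380), Mir337 (1894 ± 375), Mir540 (928 ± 494), Mir136 (587 ± 156), Mir493 (300.0 ± 253) and Mir665 (297 ± 20.7; SD, n = 2 for each). From the top down to Mir434, no library of a higher gene fell below a library of the next gene. The ranges overlapped between Mir434 and Mir337, Mir540 and Mir136, Mir136 and Mir493, and Mir493 and Mir665, and in each of these pairs the order differed between the libraries. Each read is expected to span a whole mature miRNA, so CPM was not divided by hairpin length. Divided by it, the order was the same, from 25965 CPM per 100 hairpin bases at Mir127 to 316 at Mir665. Efficiency of adapter ligation differs between miRNA sequences, and how far it sets the order of different genes was not tested.

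Most members differed between the 2 libraries by more than counting error. The split of each gene's reads was set against the split of the library sizes, scaled by TMM (a factor per library that corrects for differences in composition), in an exact binomial test with Benjamini-Hochberg adjustment over the 377 detected genes. By this test 8 of the 9 members differed at an adjusted p under 0.05, where 68.2% of all detected genes did. Higher in replicate 2 were 6 members (66.7%), against 35.5% of all detected genes. Higher in replicate 1 were 2 members (22.2%), against 32.6%. A difference of at least 2-fold was held by 2 members (22.2%), against 18.3%. Members are counted more deeply than most genes, the lowest having a mean of 1380 reads where the median detected gene had 713, and depth raises the share called. Among the 284 genes with a mean of at least 100 reads, 82.0% were called, 121 higher in replicate 2 and 112 in replicate 1. The test compares these 2 libraries, not conditions, and takes counting error as the only error.

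Ratios are given as log2 of TMM-scaled reads in replicate 2 over those in replicate 1. That of Mir493 was 2.11 (95% exact interval 1.98 to 2.25), or 4.33-fold higher in replicate 2 and the fifth highest of 377. Mir540 followed at 2.42-fold (log2 ratio 1.27, 1.21 to 1.34). Mir431 (log2 ratio 0.87), Mir127 (0.86) and Mir433 (0.74) lay close together at 1.83-fold, 1.81-fold and 1.67-fold higher in replicate 2, and Mir337 was 1.45-fold higher (0.54). These 6 kept their direction under scaling by total reads and by DESeq2 size factors. Mir434 was 1.19-fold higher in replicate 1 (-0.25, -0.29 to -0.21) and Mir136 1.34-fold (-0.42, -0.50 to -0.34), likewise under each scaling. Mir665 had a log2 ratio of -0.01 (-0.12 to 0.10, adjusted p = 0.908 by the binomial test) and was called higher in replicate 1 only under total reads (-0.14, adjusted p = 0.0148). The TMM factors shift every log2 ratio by 0.13 towards replicate 2 relative to total reads.

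The exact test of edgeR took the libraries as groups of 1 sample, with a common biological coefficient of variation of 0.433 estimated from the differences of this same pair, so a missed threshold does not show that a member did not differ. It called 0 members and 7 of the 377 genes at an adjusted p under 0.05. At an unadjusted p under 0.05 it had 24 genes, among them 1 member, Mir493 (p = 0.0250, adjusted p = 0.489 by edgeR's exact test). The members' log2 ratios ran from -0.42 to 2.11 with a median of 0.74 and an SD of 0.79. Over all 377 genes the median was 0.04, the SD 0.97 and the quartiles -0.47 and 0.44.

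**Figure D3:**
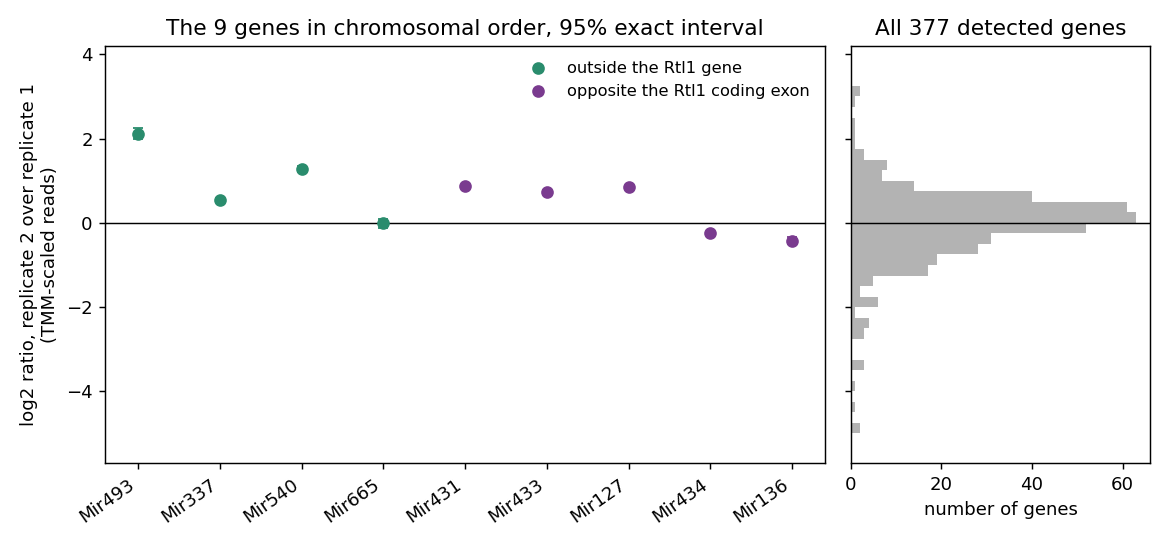
Log2 of replicate 2 over replicate 1 (TMM-scaled reads) for the 9 genes in chromosomal order, with 95% exact intervals that are mostly smaller than the points (left), and a histogram of the ratio over all 377 detected genes on the same axis (right). Mir493 is highest at 2.11, Mir431, Mir433 and Mir127 lie between 0.74 and 0.87, and Mir434 and Mir136 are lowest at -0.25 and -0.42.

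Along the chromosome, the 2 members called higher in replicate 1 were the last of the 5 opposite Rtl1, and the first 3 of these 5 all had log2 ratios of 0.74 or higher. The median ratio of the 5 was 0.74 and that of the 4 outside Rtl1 was 0.91, of which 3 were called higher in replicate 2 and 1 had no call. The other 58 miRNA genes between Meg3 and Dio3 included 43 detected ones, of which 25 were called higher in replicate 2, 13 higher in replicate 1 and 5 had no call (median log2 ratio 0.24). Before Mir379, where the distal chain begins, 8 of these others were detected, with 6 calls towards replicate 2 and 0 towards replicate 1 (median 0.80). From Mir379 on, 35 were detected, 19 called higher in replicate 2 and 13 in replicate 1 (median 0.22). Whether the proximal and distal genes differ in ratio was not tested.

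Single genes of the wider locus covered a similar range to the members. The most abundant others were Mir411 (21725 and 27600 CPM in replicates 1 and 2), Mir379 (12087 and 14217), Mir487b (7875 and 16167), Mir541 (6306 and 7560) and Mir382 (4289 and 6878). Their log2 ratios were 0.48, 0.37, 1.17, 0.39 and 0.81. The lowest ratio of the others was that of Mir666 (-0.90) and the highest that of Mir380 (1.61), which Mir493 exceeded. Mir432, the sixth plus-strand miRNA gene opposite the Rtl1 exon and named here after its value was seen, had 0 reads in both libraries, which allows up to 6.05e-05% of the miRNA reads in replicate 1 and 6.66e-05% in replicate 2.

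**Figure D4:**
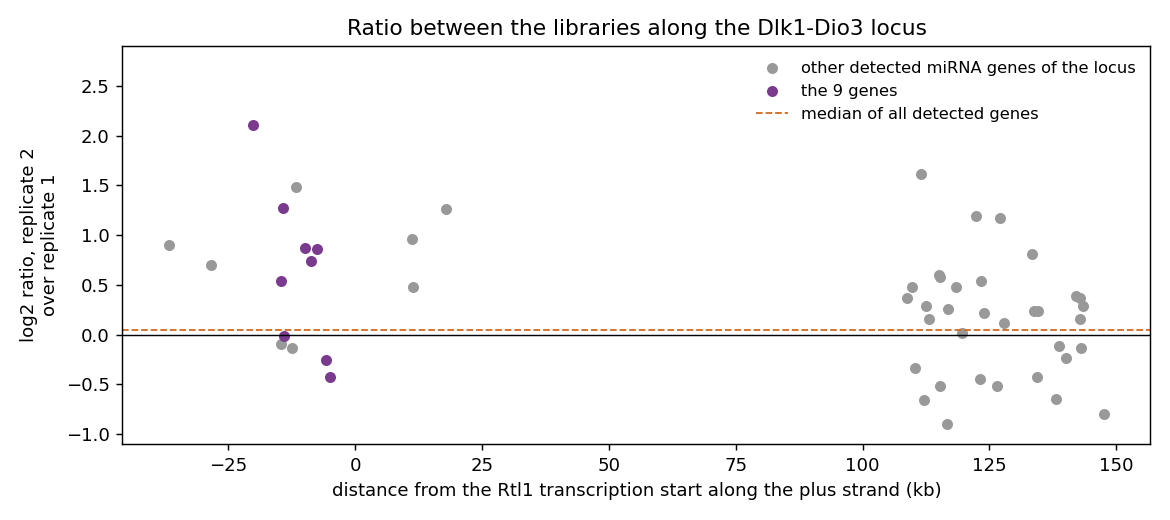
Log2 ratio of replicate 2 over replicate 1 for the detected miRNA genes of the locus, against the distance from the Rtl1 transcription start in kb along the plus strand; Mir1247, which lies far to the right near Dio3, is not drawn. The 9 genes run from -0.42 (Mir136) to 2.11 (Mir493), and the dashed line marks the median of all detected genes (0.04).

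Markers of other tissues moved between the same libraries. Of the 10 striated muscle miRNA genes 3 were detected, all 3 called higher in replicate 2, and the list summed to 1254 CPM in replicate 1 and 8688 CPM in replicate 2, nearly all from Mir206. The defining pair Mir1a-1 and Mir133a-1 had at most 3 reads in either library, and both exist in more than 1 copy, whose shared reads are not counted. Of the list's undetected genes, Mir1b (18 and 4 reads in replicates 1 and 2) and Mir1a-2 (5 and 2) had more reads in replicate 1. Mir133b (9 and 29), Mir133a-1 (0 and 3), Mir208a (0 and 2) and Mir133a-2 (0 and 1) had more in replicate 2. The brown fat list summed to 12992 and 19742 CPM, with 2 of its 3 genes called higher in replicate 2 and 1 in replicate 1. The epithelial list (7 of 7 detected) summed to 4709 and 1165 CPM, with 6 genes called higher in replicate 1 and 1, Mir203, in replicate 2. The kidney list (4 of 5 detected) summed to 419 and 180 CPM, with 3 genes called higher in replicate 1 and 0 in replicate 2. Endothelial Mir126a alone took 15.7% and 5.47% of the reads. No miRNA defines the adrenal gland by itself. Of the 12 genes on the neuronal and neuroendocrine list, 10 were found by symbol and 4 were detected. Mir7a-1 and Mir7a-2 were not found under these symbols, so their reads are in neither the sums nor the calls. Among the detected genes Mir375 was high in both libraries (36380 and 41025 CPM) and made up most of the list's sum (40497 and 45946 CPM). Mir7b had 3362 and 4213 CPM, Mir137 had 730 and 695 CPM, and Mir153 had 119 and 52 reads. The copies of Mir9 and Mir124a had at most 6 reads in either library. Without the most abundant gene, Mir126a, in the total, the 9 members took 3.29% and 4.51%, and without the striated muscle genes 2.78% and 4.30%. The part of tissue composition in the members' differences was not tested, since these totals change only the denominator of the share.

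The region is transcribed on both strands, and the tables also count reads on the strand opposite to each gene. At Mir431, Mir433, Mir127 and Mir434, where that strand is the Rtl1 messenger RNA, such reads were close to none. They numbered 3 of 121061 reads in replicate 1 (0.00248%, Wilson bounds 0.000843 and 0.00729) and 6 of 171236 in replicate 2 (0.00350%, bounds 0.00161 and 0.00765). Detected genes without an annotated miRNA gene on the other strand, a set that by its definition includes these genes, had 0.00241% and 0.00289%. Pooled over these genes, the Rtl1 strand was not distinguishable from that level at this depth. Mir434 alone lay above it, on 3 reads in each library. That number equals the floor of 3 counts set here for a count of 0, so no signal of the Rtl1 strand is read from it. The share at Mir434 was 0.0262% (Wilson bounds 0.00890 and 0.0769) in replicate 1 and 0.0375% (bounds 0.0128 and 0.110) in replicate 2. Mir431 and Mir433 had 0 such reads in both libraries, and Mir127 had 0 and 3. Libraries of RNA under 30 bases hold short RNA, and the level of the Rtl1 messenger RNA is not measured by them.

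At Mir337 the opposite strand carried 129 of 8208 reads in replicate 1 (1.57%, Wilson bounds 1.32 and 1.86) and 124 of 9852 in replicate 2 (1.26%, bounds 1.06 and 1.50). Both intervals lay above that background, which by its definition leaves out genes that, like Mir337, face an annotated miRNA gene. Of the opposite-strand reads at Mir337, 127 and 99 fell on the annotated hairpin of Mir3544, whose own level was 25.6 and 22.0 CPM. The mature sequences printed above pair along 21 bases between miR-337-3p and miR-3544-5p and along 17 bases between miR-337-5p and miR-3544-3p. Mir136 had 8 of 3466 and 5 of 2153 reads on the other strand (0.231% and 0.232%), the same numbers as were counted at Mir3071. Mir493, Mir540, Mir665, Mir431 and Mir433 had 0 such reads in both libraries, which allows up to 0.499% in replicate 1 (at Mir493) and up to 0.236% in replicate 2 (at Mir665), the loosest of these limits in each library.

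This overlap decides whether 2 of the members are seen at all. In the column of reads counted on either strand, reads under 2 annotated genes are set aside as ambiguous. There Mir337 was left with 2 and 25 reads, the same numbers as its opposite-strand reads outside Mir3544, and Mir136 was left with 0 in both libraries. Counted by strand, Mir337 ranked 60 and Mir136 ranked 115 of the 2202 genes by mean level. The other 7 members differed by at most 3 reads between these columns in either library.

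Nearest to Mir127 in level over the 2 libraries, by Euclidean distance of log2(CPM + 1), were Mir139 (distance 0.188; 14194 and 19981 CPM), Mir378a (0.244; 12728 and 19456 CPM) and Mir335 (0.307; 16932 and 23008 CPM). None of these lies on chromosome 12. With 2 libraries this is a likeness of levels at 2 points and no more.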

How the data were processed

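Small RNA of adrenal gland was sequenced in 2 libraries of 1 group. The authors deposited raw counts of reads for each miRNA gene; the build was mm10, per the labels and the file headers, and the annotation GENCODE M21, per the file headers. Not given in the sources used here: the aligner and counting tool. The 3 count columns, read from the values, hold reads on either strand, the annotated strand (used throughout) and the opposite strand. Leading rows that name no gene were left out of library sizes: 25.8% and 26.1% of reads were unmapped, 25.9% and 27.8% mapped to several places, and 5.96% and 6.24% fell in no miRNA gene. All 2202 identifiers were found in the annotation.

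CPM was computed over miRNA reads. Detection needed 10 reads in both libraries. TMM factors (1.05 and 0.956) and the exact test came from edgeR 4.0.16, size factors from DESeq2 1.42.0, the exact two-sided binomial test and Wilson intervals (95%) from SciPy 1.17.1, and folding energies from RNAfold 2.7.2. The binomial test was checked on counts simulated with counting error alone, so the check does not cover any further spread between libraries. A floor for a count of 0 is 3 counts. With a single group of 2 libraries no test against the spread between animals was run, and p-values cover these libraries only. Reads carry no molecular identifiers, so intervals and floors cover counting error only. Arms of a hairpin are counted together. All 9 hairpins and 18 mature sequences were found in RefSeq (GRCm38.p6), whose hairpins equal those of GENCODE.

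Named are the 9 members, miRNA genes overlapping them, the 5 most abundant and the extreme-ratio genes among the other miRNA genes between Meg3 and Dio3, and the 3 genes nearest in level to the leading member; exceptions are marked. The members and all lists were chosen with earlier results of these data known. Alternatives covered scaling, read minimum, test, strand column, totals and each library left out. Lists of neuronal, mesenchymal, erythroid and leukocyte miRNAs were also summed: 40497 and 45946, 30538 and 37711, 1059 and 287, and 1973 and 2237 CPM in replicates 1 and 2. Their genes called higher in replicates 1 and 2 numbered 1 and 2, 3 and 2, 2 and 1, and 1 and 3, so sum and calls differ in direction for the mesenchymal list (median log2 ratio -0.51).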

Additional observations from a re-analysis of the deposited data

How the results depend on the processing

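The summed share of the 9 genes (mean 3.52%) was 2.77% without replicate 2 and 4.27% without replicate 1. It was 5.25% (3.93% and 6.57% in replicates 1 and 2) where members and total were limited to genes whose hairpin shares no run of 18 bases, since that total is smaller, and 1.70% without Mir127 (chosen after seeing the data). The other totals and the strand column gave 3.06% to 3.90%. The count of members called (8) was 6 of 7 with reads on either strand, where Mir337 and Mir136 could not be tested, 9 under total reads, 7 of 8 without Mir493 (chosen after seeing the data) and 0 under edgeR's exact test; the genes called among all (257) numbered 7 under that test and 233 to 264 under the other alternatives. Under total reads the split of all calls was 112 higher in replicate 2 and 144 in replicate 1, against 134 and 123 under TMM. No log2 ratio of a member changed sign under any alternative run. Under reads on either strand, the mean of Mir337 fell from 1894 to 3.37 CPM. No paired analysis was possible because the series holds a single group.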

Other observations

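The hairpin of Mir434 holds a run of 13 bases, ugguuugaaccau, in 2 copies, the longest repeat inside any of the 9 hairpins. Mir540 and Mir431 each hold a repeat of 10 bases, and at Mir337 and Mir127 no run of 6 or more bases occurs again without overlap. Near the members, Mir770 inside Meg3 (567 and 965 CPM in replicates 1 and 2), Mir673 (339 and 502) and, past Rtl1, Mir341 (990 and 1760) and Mir370 (234 and 512) were each higher in replicate 2 (exact binomial test). Mir3070a and Mir3070b, a related pair between Mir665 and Mir431, had 70 and 53 reads and 16 and 37 reads in replicates 1 and 2. These 6 genes were named after their values were seen.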
